A study of Homo sapiens with 10 samples.

Results

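Retinoblastoma protein (Rb) peaks were examined at 10 genes that mark the serous ovarian lineage or the surface of serous ovarian cancer cells: PAX8, WT1, SOX17, MECOM, EMX2, MUC16, FOLR1, MSLN, EPCAM and WFDC2. They are a list of names among 19970 protein-coding genes, set with earlier results of these data known, and the rule used no Rb value. A peak was assigned to a promoter when it overlapped the stretch from 2000 bp before to 500 bp after any annotated transcript start of the gene, and to a gene's surroundings when it lay within 100 kb of the gene and outside every annotated promoter. Of 87112 Rb peaks in 8 libraries, 97 met the rule, 60 of them at promoters and 37 outside promoters. PAX8, WT1, SOX17, MECOM and EMX2 encode transcription factors. MUC16, FOLR1, MSLN and EPCAM encode proteins of the cell surface and WFDC2 a secreted one.

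CUT&RUN, in which an antibody steers a nuclease to release the DNA around a chromatin protein, was used on OVCAR-3 and Kuramochi cells. Both are established human high-grade serous ovarian cancer cell lines, labelled wild type, and the question was where Rb sits on chromatin when CDK2 is inhibited. Each line was given DMSO, the solvent, or 300 nM INX-315, a CDK2 inhibitor, for 2 days, and 2 biological replicates of each arm were profiled with an antibody to Rb in a single experiment. Each line also had 1 library made with mouse IgG2a from DMSO-treated cells, which served as the background control, and libraries from cells lacking Rb were not analysed here. The lists of the Rb libraries held 5221 to 17281 peaks, with a genome-wide mean of 0.216 to 0.501 fragments per base. The IgG2a lists held 257 and 195 peaks, and 0 of them lay within 100 kb of the 10 genes. Peak lists carry no expression values, so whether these lines express the 10 genes was not examined.

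Rb is a tumour suppressor that, in its unphosphorylated form, binds E2F transcription factors at promoters and restrains their target genes. Cyclin-dependent kinases phosphorylate Rb and release it, and inhibitors of these kinases keep it in the binding form. PAX8 and SOX17 are lineage factors of the Müllerian duct and of the fallopian tube epithelium from which many high-grade serous cancers arise, and WT1, MECOM and EMX2 are expressed in serous tumours or in the developing urogenital tract. MUC16 carries the CA125 antigen, WFDC2 encodes the serum marker HE4, and FOLR1, MSLN and EPCAM are targets of antibody drugs.

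The promoters of these genes differ widely in base composition. The following 6 windows of 100 bases from the hg38 reference genome are read along the strand of each gene, with each CG dinucleotide, the base pair step that marks CpG islands, in capitals. They are shown so that the sequence under the tallest summits can be read beside the sequence before the starts of WFDC2, the secreted gene bound in 7 libraries, and MUC16, which had no promoter peak. For WT1 (chr11:32435989-32436088, minus strand, within an exon of the non-coding gene WT1-AS), EMX2 (chr10:117542255-117542354, plus strand, within an exon of the non-coding gene EMX2OS), MECOM (chr3:169662458-169662557, minus strand, intron) and PAX8 (chr2:113279162-113279261, minus strand, upstream) the window is centred on the summit of the tallest Rb peak. For WFDC2 (chr20:45469653-45469752, plus strand) and MUC16 (chr19:8981343-8981442, minus strand) it ends at the base before the canonical start.
WT1: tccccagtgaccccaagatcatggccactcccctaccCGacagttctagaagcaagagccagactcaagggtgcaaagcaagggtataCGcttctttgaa
EMX2: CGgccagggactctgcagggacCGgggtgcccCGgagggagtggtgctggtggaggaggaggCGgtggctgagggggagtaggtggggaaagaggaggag
MECOM: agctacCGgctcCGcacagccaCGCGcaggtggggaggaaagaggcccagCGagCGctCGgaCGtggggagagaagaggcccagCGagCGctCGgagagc
PAX8: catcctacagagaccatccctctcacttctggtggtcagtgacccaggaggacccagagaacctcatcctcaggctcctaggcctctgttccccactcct
WFDC2: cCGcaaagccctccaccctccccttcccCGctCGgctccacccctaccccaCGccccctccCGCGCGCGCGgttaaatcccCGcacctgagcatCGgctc
MUC16: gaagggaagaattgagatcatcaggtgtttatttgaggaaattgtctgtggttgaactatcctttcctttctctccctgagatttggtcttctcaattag
The windows of MECOM and WFDC2 held 11 CG dinucleotides each, that of EMX2 held 4, and that of WT1 held 2. The window at the PAX8 summit and the window before the MUC16 start held 0.

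All 5 transcription factor genes had an Rb peak at a promoter in both INX-315 libraries of each line, and of the 5 surface and secreted genes 2 did in OVCAR-3 and 1 in Kuramochi. SOX17 was not counted in OVCAR-3 when an overlap of at least 100 bp was required, or with a narrower promoter window. WT1, SOX17, MECOM and EMX2 had a promoter peak in all 8 Rb libraries, which 18.8% of protein-coding genes did. WFDC2 had one in 7 libraries, PAX8 in 5, EPCAM in 4 and MSLN in 1. MUC16 and FOLR1 had none, like 31.2% of protein-coding genes. In OVCAR-3, 4 of the 10 promoters had a peak in both DMSO libraries (26.8% of protein-coding promoters) and 7 in both INX-315 libraries (55.5%). In Kuramochi, the counts were 5 under DMSO (24.8%) and 6 under INX-315 (53.2%). The list was not tested against this background. Single libraries held 4 to 8 of the 10 genes, and OVCAR-3 DMSO replicate 1, with 6162 peaks, held 4 while replicate 2, with 7984, held 7. Without OVCAR-3 DMSO replicate 1, the OVCAR-3 DMSO count was 7, the same as under INX-315. The number of fragments stacked at a summit, divided by the library's genome-wide mean, is called the peak height below. The summits of the tallest promoter peaks held 5 to 111 fragments, so single heights carry sizeable counting error. The height removes the difference in depth between libraries but not a difference in the share of fragments that lies in peaks.

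**Figure D1:**
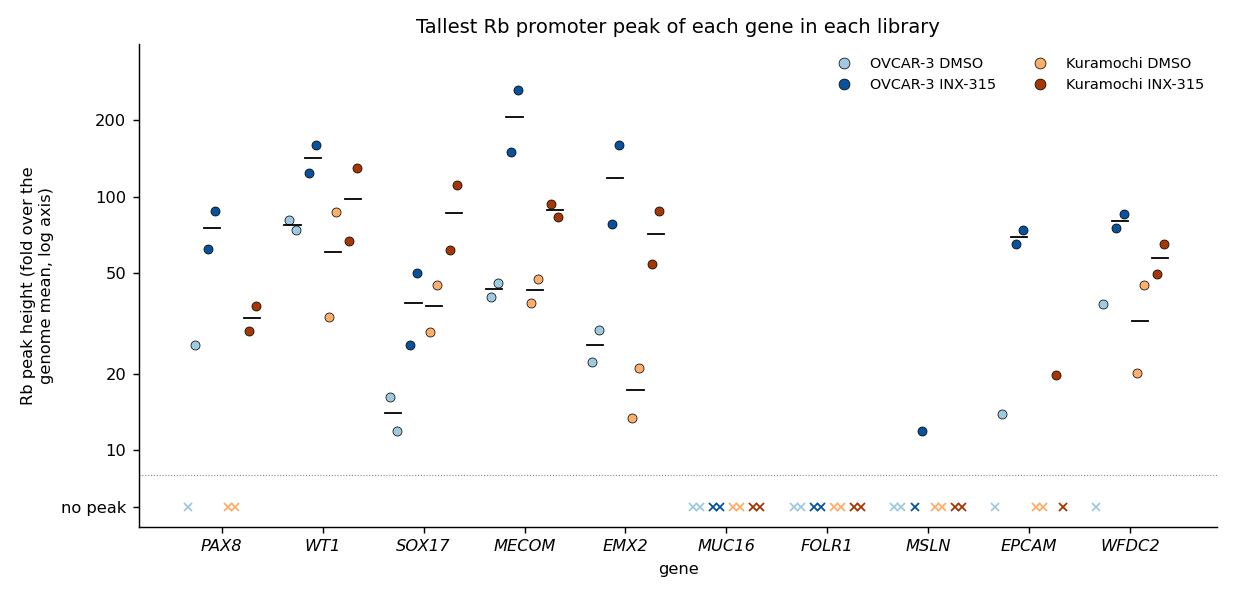
Height of the tallest promoter peak (vertical axis, logarithmic, fold over the genome-wide mean) of each gene in each of 8 libraries, with circles for libraries, bars for the mean of 2 replicates and crosses for libraries without a peak. MECOM reached 264 in an OVCAR-3 INX-315 library, and MUC16 and FOLR1 show crosses alone.

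WT1 encodes a zinc finger factor of the developing gonad and kidney and is used to identify serous carcinoma. The 2 DMSO libraries of OVCAR-3 gave heights of 80.8 and 73.8, and the INX-315 libraries 124 and 159. Kuramochi gave 33.7 and 86.9 with DMSO, and 66.7 and 130 with the inhibitor. The OVCAR-3 groups did not overlap and the Kuramochi groups did, because the second DMSO library exceeded the first INX-315 library. For this and the genes below, the share of all regions whose groups did not overlap was not counted. In the fits described later, 97.2% of the regions in OVCAR-3 and 90.4% in Kuramochi were higher with INX-315. That is another measure, taken only on regions with a peak in every library of the line. A lack of overlap is therefore not read as a trait of these genes. WT1 had the tallest of the 10 genes' peaks in 3 of the 4 DMSO libraries. The region (chr11:32432946-32436892) is also the promoter of WT1-AS, which is transcribed in the opposite direction, and the peaks cannot be divided between the genes.

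MECOM encodes a zinc finger factor at a locus that is often amplified in serous cancer. At the main promoter (chr3:169660774-169664173), OVCAR-3 heights were 40.4 and 45.9 with DMSO, against 150 and 264 with INX-315. Kuramochi had 38.2 and 47.4 with DMSO, against 93.8 and 83.4 with INX-315. The treated libraries lay above the DMSO libraries in both lines, and the DMSO ranges of the lines overlapped. MECOM has 14 distinct annotated starts in a gene of 580277 bp, and Rb was also found at internal ones. A region at chr3:169146832-169147807 reached 32.6 and 49.9 with INX-315 in OVCAR-3 and had no peak in the other 6 libraries. A further one at chr3:169149452-169149757 had a height of 28.5 in OVCAR-3 INX-315 replicate 2 and no peak elsewhere.

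EMX2 encodes a homeodomain factor of the urogenital tract. Heights in OVCAR-3 were 22.2 and 29.9 with DMSO, and 78.3 and 159 with INX-315. Those in Kuramochi were 13.5 and 21.1 with DMSO, and 54.3 and 88.0 with INX-315. The groups did not overlap in either line. The region (chr10:117541199-117544094) is shared with EMX2OS.

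SOX17 encodes an HMG-box factor of the endoderm and the Müllerian epithelium. Its region (chr8:54457513-54459950) had OVCAR-3 heights of 16.2 and 11.96 with DMSO, compared with 26.1 and 49.9 with INX-315. Kuramochi heights were 29.2 and 44.8 with DMSO, compared with 61.7 and 111 with INX-315. The groups did not overlap within a line, and the Kuramochi DMSO libraries lay near the OVCAR-3 INX-315 libraries. The local background that MACS2 set for the peak was 2.83 to 2.88 times the genome mean in Kuramochi and 1.06 to 1.10 times in OVCAR-3.

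PAX8 encodes a paired-box factor that defines Müllerian epithelium. At chr2:113278444-113279492 it had no promoter peak in OVCAR-3 DMSO replicate 1, a height of 25.9 in replicate 2, and heights of 62.0 and 88.0 with INX-315. In Kuramochi it had no peak in either DMSO library and heights of 29.6 and 37.1 under INX-315. PAX8 was the 1 gene of the 10 that was gained in Kuramochi, that is, with a peak in both INX-315 libraries and in neither DMSO library, as for 14.0% of protein-coding promoters. In OVCAR-3, 0 of the 10 were gained (16.2% of protein-coding promoters). Without OVCAR-3 DMSO replicate 2 that count was 3 (PAX8, EPCAM and WFDC2), without OVCAR-3 INX-315 replicate 1 it was 1 (MSLN), and the Kuramochi count was 2 (PAX8 and EPCAM) without Kuramochi INX-315 replicate 2. With lists of equal length PAX8 was not gained in Kuramochi, where the count was 0, and EPCAM was gained in OVCAR-3. None of the 10 was lost, that is, listed in both DMSO libraries and in neither INX-315 library, in OVCAR-3 (0.00501%) or in Kuramochi (0.0150%). The absence of a PAX8 peak in the Kuramochi DMSO libraries does not mean that no Rb was there: the lowest peaks listed at a like local background had heights of 18.0 and 21.1 in these libraries.

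Of the surface and secreted genes, WFDC2, which encodes a secreted protease inhibitor-like protein, was bound most often. At chr20:45469377-45471114 it had no peak in OVCAR-3 DMSO replicate 1, a height of 37.9 in replicate 2, and heights of 75.0 and 85.6 with INX-315. Kuramochi showed 20.2 and 44.8 with DMSO, and 49.4 and 64.8 with INX-315. The WFDC2 groups did not overlap in Kuramochi. EPCAM, an epithelial adhesion molecule, had a peak at chr2:47368988-47370170 in 3 OVCAR-3 libraries, with a height of 14.0 in DMSO replicate 2 and of 65.3 and 73.7 with INX-315. In Kuramochi it was listed in INX-315 replicate 1 alone, with a height of 19.8. For EPCAM, a peak in Kuramochi INX-315 replicate 2 would have needed a height of about 18.5, the lowest listed there at a like local background.

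MSLN, the gene of the glycoprotein mesothelin, had 1 promoter peak (chr16:760963-761336), in OVCAR-3 INX-315 replicate 2, with 5 fragments at its summit and a height of 11.9. MUC16 and FOLR1, the gene of a folate receptor, had no promoter peak in any library. Their nearest peaks were 98.4 to 148 kb and 30.9 to 31.2 kb from the canonical start, and those of FOLR1 lay at the promoter of INPPL1 in all 8 libraries. At the genome-wide mean background, the lowest peaks listed had 3 to 5 fragments, a height of 9.51 to 13.9. Rb below that level at MUC16, FOLR1 or MSLN was not detectable at this depth.

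The 4 genes bound in every library had their summits away from the canonical start. With positions counted in the direction of transcription, the WT1 summits fell at -628 to -491 bp from the start, in an exon of WT1-AS, and spanned 137 bp over 8 libraries. The MECOM summits fell 1048 to 1204 bp downstream, in an intron of the gene. They lay beyond the 500 bp limit of the promoter window, which the peaks overlapped. The SOX17 summits lay 401 to 664 bp downstream, in a coding exon (2 libraries) or an intron (6), and those of EMX2 at -509 to -287 bp, in an exon of EMX2OS. The 6 intronic SOX17 summits were also beyond the 500 bp limit. EMX2 has 4 distinct annotated starts, and from the nearest of them its summits lay at -208 to 14 bp. Among 3574 protein-coding genes with a measured peak in all 8 libraries, the median summit was 192 bp from the canonical start in either direction, and 68.1% were within 300 bp. The median summits of EMX2, WT1, SOX17 and MECOM were 449, 541, 602 and 1167 bp away, at percentiles 78.2, 81.2, 82.5 and 88.0 of these genes. The 4 EPCAM summits were 10 to 100 bp downstream of its start, in the 5′ UTR, and the 7 WFDC2 summits were spread from -11 to 534 bp. The PAX8 summits lay at -320 to -291 bp in the 3 OVCAR-3 libraries with a peak and at 116 and 153 bp, in an intron, in the Kuramochi INX-315 libraries. The Kuramochi summits held 12 and 8 fragments, and these peaks also covered the positions of the OVCAR-3 summits.

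**Figure D2:**
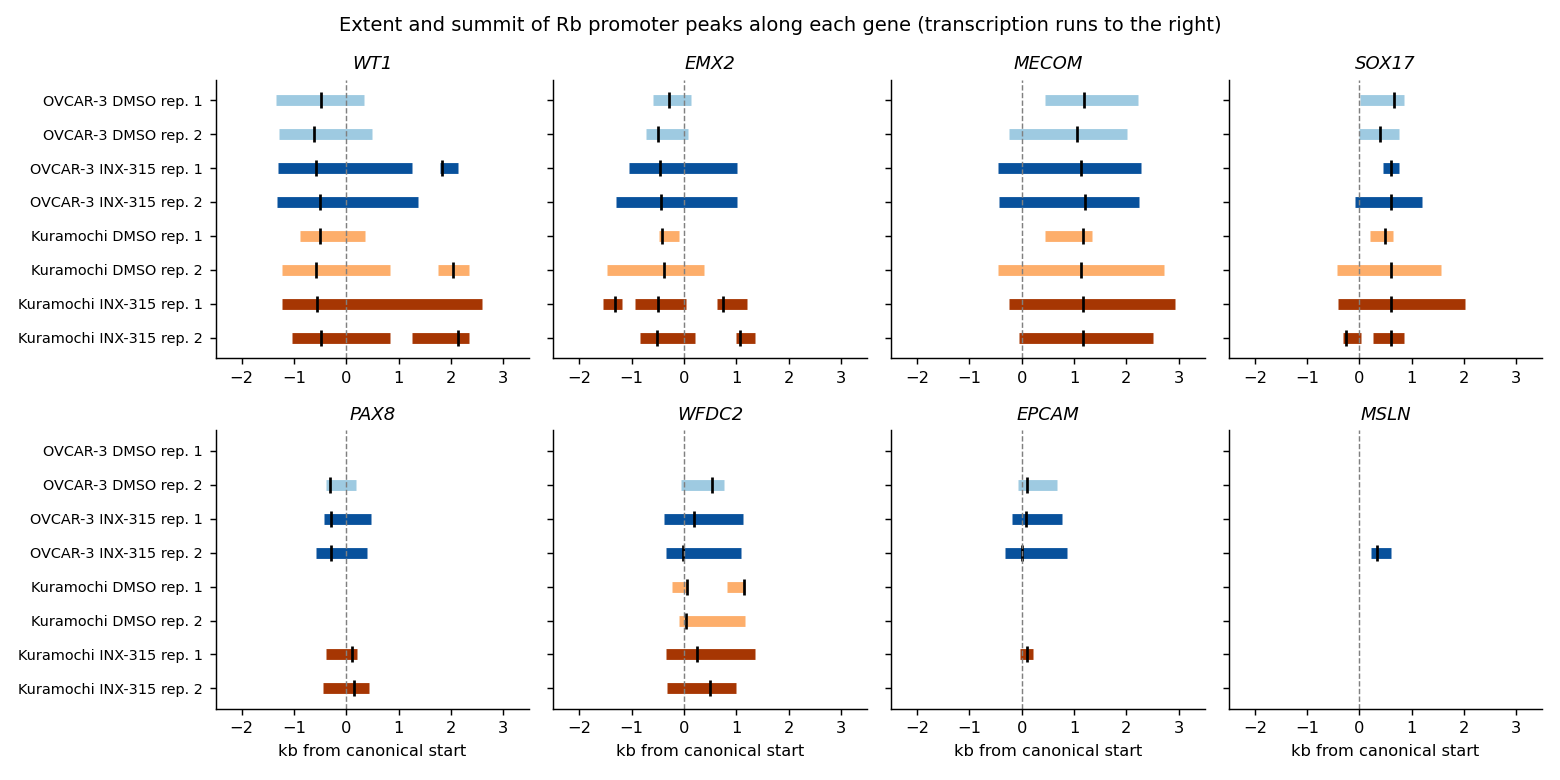
Extent (bars) and summit (black ticks) of the promoter peaks of 8 genes in each library, against the distance from the canonical start in kb with transcription to the right; the internal MECOM starts are not drawn. The MECOM summits align between 1048 and 1204 bp downstream of the start in all 8 libraries.

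WT1 and MECOM were covered by wide peaks. The WT1 peak measured 1247 to 3831 bp, at percentile 95.7 or above among all Rb peaks of its library. The MECOM peak measured 898 to 3188 bp, at percentiles 85.5 to 99.9 on the same measure. The median promoter peak was 496 to 895 bp wide. SOX17 peaks ranged from 317 bp in OVCAR-3 INX-315 replicate 1 to 2419 bp in Kuramochi INX-315 replicate 1.

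Peak height was greater with INX-315 at nearly all the member promoters that could be tested, as it was at nearly all regions that could be fitted. Heights were compared on the log2 scale with limma over all 3079 regions that had a measured peak in all 8 libraries, with line as a covariate. INX-315 was higher at 3059 regions (99.4%) and lower at 0, with a median log2 difference of 1.65. All 4 of the genes in this fit rose, although SOX17, MECOM and WT1 turned negative once the rise common to the fitted regions was removed by centring. EMX2 rose 4.22-fold (log2 2.08, SE 0.29, adjusted p = 5.77e-12, limma), MECOM 3.10-fold (log2 1.63, adjusted p = 2.93e-08), SOX17 2.44-fold (log2 1.29, adjusted p = 1.01e-05) and WT1 1.77-fold (log2 0.82, adjusted p = 0.00445). Every region in this fit shared the same SE. Since nearly every region rose, these calls say little about the 4 genes, and their place among the regions says more. The EMX2 rise was as large as or larger than that of 89.2% of the regions, MECOM 48.1%, SOX17 18.4% and WT1 2.57%.

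The WT1 promoter, among the tallest under DMSO, rose by less than most regions of like height, and fell when heights were centred. Of 408 regions whose mean DMSO height was within 25% of that of WT1, the median log2 difference was 1.51 and 97.1% had a larger one. When each library was centred on the median of its regions, 258 regions (8.38%) were lower under INX-315 and 115 higher. On that scale WT1 fell by 0.87 (log2, adjusted p = 0.0110, limma), while SOX17 at -0.41, MECOM at -0.062 and EMX2 at 0.38 did not pass the test. The rise of WT1 on the uncentred scale did not pass without Kuramochi DMSO replicate 1 (log2 0.56, adjusted p = 0.0791, limma) or without Kuramochi INX-315 replicate 2 (log2 0.64, adjusted p = 0.0587, limma), and not when the listed fold over the local background replaced height (log2 0.45, adjusted p = 0.154, limma). Over all its alternatives the WT1 adjusted p ranged from 9.35e-05 to 0.154 (limma).

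Within OVCAR-3, 4639 of 4773 regions were higher under INX-315 (97.2%), with a median log2 difference of 1.77. MECOM rose by a log2 difference of 2.21, EMX2 by 2.11, SOX17 by 1.38 and WT1 by 0.86 (adjusted p = 5.34e-07, 1.34e-06, 0.00103 and 0.0373, limma). On centred heights SOX17 turned to -0.45 and did not pass, nor did MECOM at 0.38 and EMX2 at 0.28. WT1 turned to -0.97 on that scale and passed narrowly (adjusted p = 0.0489, limma). Within Kuramochi, 3987 of 4408 regions were higher (90.4%), with a median of 1.49. EMX2 rose by 2.04, SOX17 by 1.20, MECOM by 1.06 and WFDC2 by 0.91 (adjusted p = 1.23e-05, 0.00603, 0.0147 and 0.0342, limma). On centred heights SOX17, MECOM and WFDC2 turned to -0.33, -0.47 and -0.61 and EMX2 was at 0.51, and none of these passed. WT1, at 0.78 (95% interval -0.04 to 1.60), did not pass (adjusted p = 0.0682, limma), though it did at 1.46 without Kuramochi DMSO replicate 2 (adjusted p = 0.000200, limma). Each line had 2 libraries an arm, and single libraries decided several calls. In OVCAR-3, WT1 did not pass without DMSO replicate 1 (0.93), DMSO replicate 2 (0.80) or INX-315 replicate 2 (0.68), nor SOX17 without DMSO replicate 2 (1.16). In Kuramochi, MECOM did not pass without INX-315 replicate 1 (0.97) or replicate 2 (1.14), nor SOX17 without INX-315 replicate 2 (0.77), nor WFDC2 without DMSO replicate 1 (0.34), INX-315 replicate 1 (1.11) or INX-315 replicate 2 (0.72). With the listed fold over the local background, SOX17 (0.97) and WT1 (0.56) did not pass in OVCAR-3, nor MECOM (0.73) and WFDC2 (0.48) in Kuramochi (adjusted p = 0.0667, 0.285, 0.0844 and 0.251, limma).

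**Figure D3:**
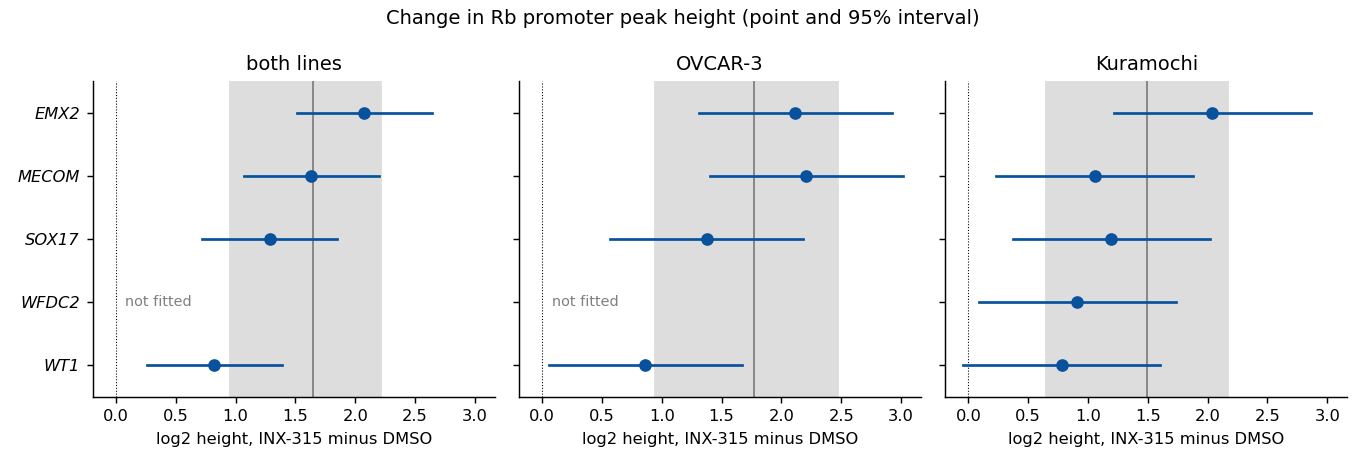
Log2 difference in peak height between INX-315 and DMSO (points, with 95% intervals from limma) in both lines together and in each line, with the median (grey line) and the 5th to 95th percentiles (grey band) of all regions fitted. WT1, at 0.82 in both lines together (-0.87 on centred heights), lies below the band, and EMX2, at 2.08, lies above the median of 1.65.

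Whether the response differed between the lines was tested with a line by treatment term. Of the 4 genes, MECOM had the largest difference, with a log2 rise 1.15 smaller in Kuramochi than in OVCAR-3 (95% interval -2.30 to -0.0055, unadjusted p = 0.0489, limma), which did not pass adjustment (adjusted p = 0.998). Over all 3079 regions 0 passed (0%), with 5 higher and 106 lower at an unadjusted p under 0.05. The differences of EMX2, WT1 and SOX17 were -0.078, -0.083 and -0.18, each turning positive on centred heights, with intervals that together reached from -1.33 to 1.07.

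The lines were also compared with treatment as the covariate. SOX17 was 2.44-fold higher in Kuramochi than in OVCAR-3 (log2 1.29, SE 0.29, adjusted p = 0.000193, limma), where 16.5% of regions were higher and 7.57% lower in Kuramochi. With the listed fold over the local background in place of height the difference was 0.46 and did not pass (adjusted p = 0.366, limma). The adjusted p of SOX17 ranged from 1.45e-05 to 0.366 over its alternatives (limma). For MECOM the listed fold gave -1.11, which passed (adjusted p = 0.0111, limma). The local background under that fold was 2.01 to 2.24 times the genome mean in OVCAR-3 and 3.28 to 3.74 times in Kuramochi. In height, EMX2, MECOM and WT1 had log2 differences of -0.65, -0.59 and -0.55 and did not pass (adjusted p = 0.0818, 0.117 and 0.147, limma). On centred heights these 3 were lower in Kuramochi, with differences of -0.79, -0.73 and -0.69 (adjusted p = 0.00218, 0.00736 and 0.0115, limma). On that scale 641 of 3079 regions were lower in Kuramochi and 651 higher. Without Kuramochi DMSO replicate 2 the 3 differences in height were -0.79, -0.77 and -0.84.

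Outside promoters, 35 of the 37 Rb peaks near the 10 genes merged into 17 regions: 5 at SOX17, 4 at MECOM, 3 at PAX8, 2 at EMX2, 2 at MSLN and 1 at MUC16. WT1, FOLR1, EPCAM and WFDC2 had none. The other 2 peaks, 1 in Kuramochi DMSO replicate 1 and 1 in Kuramochi INX-315 replicate 2, merged into the SOX17 promoter region. Of the 17 regions, 10 were listed in 1 library each. None of the 17 was listed in OVCAR-3 DMSO replicate 1 or in Kuramochi DMSO replicate 1. These libraries had the shortest list of each line, with 6162 and 5221 peaks. The matching shares over all non-promoter regions of the genome were not counted, so neither statement sets these genes apart. In OVCAR-3, 3 of the 17 were gained, against 8.70% of the 6617 non-promoter regions of the genome, and in Kuramochi 4, against 6.01%. Each count became 0 when the lists of a line were shortened to equal length. The OVCAR-3 count was 7 without OVCAR-3 INX-315 replicate 1, and the Kuramochi count was 7 without either of its INX-315 libraries.

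The region at chr3:169668155-169669411, intergenic and 4.74 kb upstream of the nearest MECOM start, was gained in both lines. Its treated libraries had heights of 45.7 and 78.5 (OVCAR-3) and of 27.2 and 32.4 (Kuramochi). At EMX2, a region at chr10:117553142-117554169, 8.48 kb downstream of the nearest start, was listed in 6 libraries, the most of the 17. Its heights were 23.9 in OVCAR-3 DMSO replicate 2, 42.4 and 33.3 in that line with INX-315, 18.4 in Kuramochi DMSO replicate 2, and 32.1 and 27.8 with INX-315 there. A second EMX2 region, at chr10:117551318-117552245, was gained in Kuramochi with heights of 19.8 and 23.2.

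At SOX17, the region at chr8:54453245-54454722, intergenic and 4.02 kb upstream, was gained in Kuramochi, with heights of 37.0 and 46.3, and had a height of 11.9 in OVCAR-3 INX-315 replicate 2. The region at chr8:54469929-54470674, 12.35 kb downstream in an exon of a gene without a symbol, was listed in 3 Kuramochi libraries and in no OVCAR-3 library, with heights of 18.4 in DMSO replicate 2 and 51.9 and 37.1 under INX-315. At PAX8, a region (chr2:113225867-113226449) that overlaps both PAX8 and PAX8-AS1, and an annotated exon, was gained in OVCAR-3 with heights of 65.3 and 59.4. It had a height of 32.4 in Kuramochi INX-315 replicate 2. It lay 5.65 kb upstream of the nearest of the 10 PAX8 starts. The MSLN region gained in both lines (chr16:807137-807806) lay 41.6 kb from the nearest MSLN start but 6.69 kb from the nearest protein-coding start, that of GNG13, with treated heights of 19.6 and 23.8 (OVCAR-3) and of 22.2 and 27.8 (Kuramochi). The MUC16 region was listed in OVCAR-3 INX-315 replicate 2 alone and lay nearest to the olfactory receptor gene OR1M1.

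**Figure D4:**
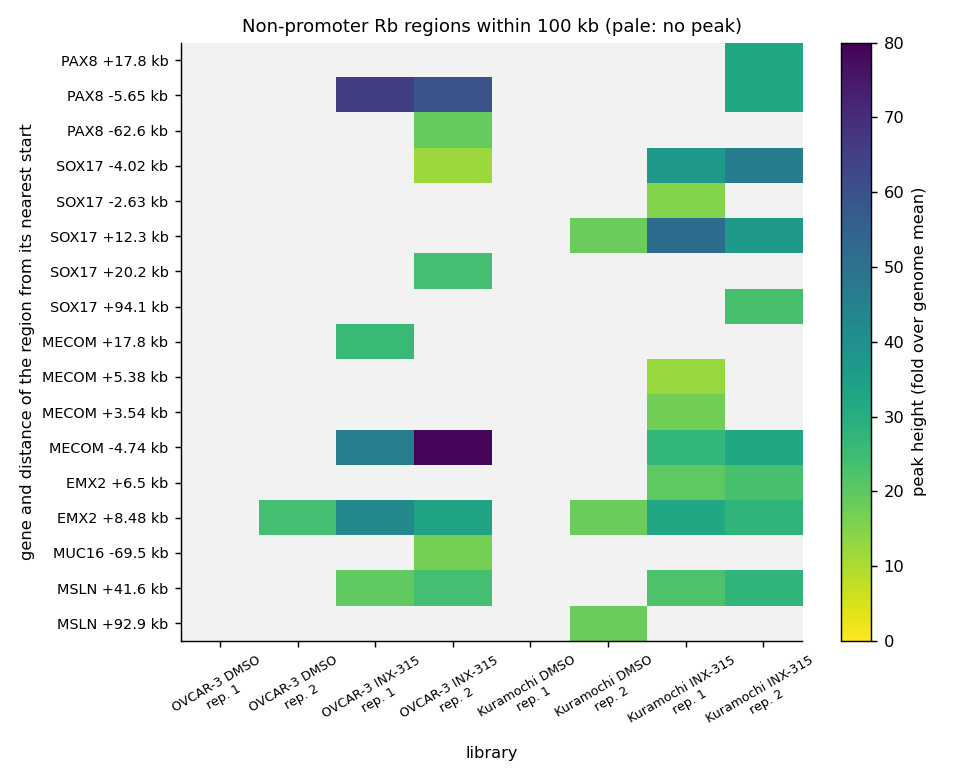
Height (colour, fold over the genome-wide mean) of the 17 non-promoter regions, named by gene and distance from the nearest start of that gene in kb, in each library, with pale cells where no peak was listed. The regions at MECOM -4.74 kb and MSLN +41.6 kb are coloured in the 4 INX-315 libraries and pale in the 4 DMSO libraries.

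Further genes of the same kinds were counted for comparison. Of 18 other transcription factors of Müllerian or serous epithelium, 4 had a promoter peak in both DMSO libraries and 11 in both INX-315 libraries of OVCAR-3, and 7 and 10 in Kuramochi. The tallest under INX-315 were ZNF503, with OVCAR-3 heights of 46.5 and 61.8 for DMSO against 219 and 233 for INX-315, and KLF5, an epithelial factor, with Kuramochi heights of 22.5 and 44.8 against 136 and 176. Of 22 other epithelial, surface or secreted genes, OVCAR-3 had 3 and 12 bound, and Kuramochi had 3 and 6. MUC1, a mucin, and ERBB3, a receptor tyrosine kinase, led them, with treated OVCAR-3 heights of 81.6 and 92.7 and of 55.5 and 71.3. Of 16 genes that define other cell types, OVCAR-3 had 1 and 4 bound, Kuramochi had 0 and 3, and 9 had no peak in any library. Among those with peaks, COL1A1, a collagen gene, had treated OVCAR-3 heights of 91.4 and 119. The counts of these lists were read beside the background above, with no test.

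The CpG content around the start varied among the 10 genes. In 500 bp around the canonical start, EPCAM held 71 CG dinucleotides, SOX17 52, WT1 42, WFDC2 37, EMX2 28, PAX8 21, MECOM 20, MSLN 18, FOLR1 6 and MUC16 5. Across protein-coding genes, the share with a peak in both OVCAR-3 INX-315 libraries was 8.64% in the lowest quintile of CpG content and 79.0% in the highest, and 7.46% and 78.2% in Kuramochi. MUC16 and FOLR1, without a promoter peak, were in the lowest quintile. MECOM and EMX2, bound in all 8 libraries, were in the second quintile with PAX8 and MSLN, where 17.4% of genes were bound in both OVCAR-3 DMSO libraries and 18.0% in both Kuramochi DMSO libraries. EPCAM, in the highest quintile, was bound in fewer libraries than either. These windows sit on the canonical start, and the 200 bp around the tallest MECOM and EMX2 summits held 18 and 10 CG dinucleotides, against a median of 18 at promoter regions.

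**Figure D5:**
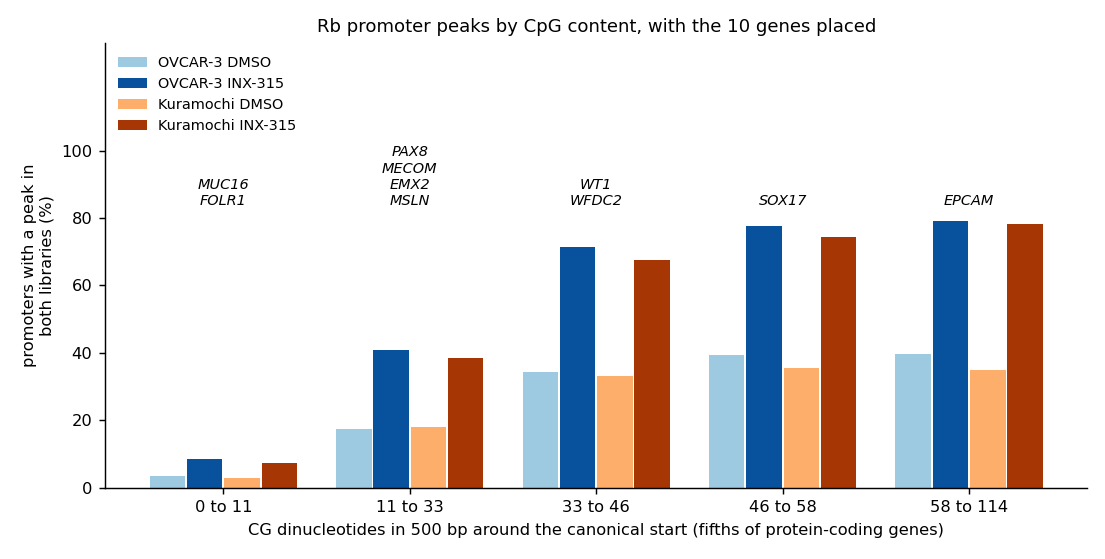
Share of protein-coding promoters with an Rb peak in both libraries of a group (bars, percent) in quintiles of genes by the number of CG dinucleotides in 500 bp around the canonical start, with the names of the 10 genes above their quintile. Bars rise from 8.64% to 79.0% for OVCAR-3 under INX-315.

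Short sequence strings known from Rb target promoters were searched on both strands in 200 bp around the tallest summit of each region. The strings were TTTCCCGC, TTTCGCGC, TTTGCCGC and TTTGGCGC for E2F, TTTGAA for the cell cycle homology region (CHR), CCAAT, and GGGCGG for the GC box, and no string contains another, though matches can share bases. No E2F string was found at the main promoter summits of the 8 genes with a peak, and 3.94% of 16133 promoter regions held one. The WT1 window held 1 CHR string, which 4.02% of promoter regions did. It lies at the 3′ end of the WT1 window printed above. A GC box string, found in 57.2% of promoter regions, was present for WT1, SOX17, MECOM, EPCAM and WFDC2 and not for EMX2, PAX8 or MSLN. A CCAAT string, found in 17.9%, was present for PAX8 and MSLN. Elsewhere in the promoter peaks, an E2F string lay 242 bp from the tallest summit of EPCAM and 1130 bp from that of WFDC2. A string match is a description of the sequence and not a site, and these strings cover a part of what E2F factors bind.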

How the data were processed

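Rb CUT&RUN peak lists of 8 libraries and IgG2a lists of 2 were analysed. Per the methods and labels, the authors trimmed reads, aligned them to hg38 with Bowtie2 2.3.4.1 and called peaks in each library with MACS2 2.2.7.1 at q of 0.05 against the IgG2a library of the line, keeping duplicate fragments. The deposited columns used were fold enrichment over the local background (a ratio), −log10 p, −log10 q and the summit offset. Whole fragment counts were recovered from fold enrichment and −log10 p (relative tolerance 3e-05) for 98.6% to 100% of the peaks of a library and divided by its genome-wide mean. Promoters came from GENCODE 44, and distances to genes were measured from the ends of the gene. Overlapping Rb peaks were merged into regions, and log2 heights were fitted with limma 3.58.1 (R 4.3.3), without a replicate term, with Benjamini-Hochberg adjustment over all regions at 0.05. Regions without a measured peak in any library of a fit were left out, so PAX8, EPCAM, MSLN and, outside Kuramochi, WFDC2 had no test. The recovery and the fits were tested on simulated data.

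The 10 genes and the comparison lists were chosen with earlier results of these data known. The text names the 10 genes, the 2 genes of each comparison list with the highest mean height under INX-315, and for each gene up to 2 non-promoter regions, those listed in the most libraries; some items that this rule names are not reported here. The replicates are labelled biological, from 1 experiment, with 2 libraries an arm. In each main fit the tested genes shared the same SE. The p-values thus rest on the spread between replicates pooled over all regions fitted, and not on the spread of the gene itself. Alternatives were a stricter q, equal list lengths, a larger overlap, other promoter and distance definitions, centred heights, the listed fold enrichment, a replicate block and the omission of each library. A mean-variance trend in limma was added after the data were seen.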

Additional observations from a re-analysis of the deposited data

How the results depend on the processing

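Promoter and region counts depended on list length and single libraries. In OVCAR-3, the gained count of 0 became 1 (EPCAM) with q of at most 0.001 or equal list lengths and ranged from 0 to 3 when 1 library was left out. The Kuramochi gained count of 1 became 0 with equal lengths and ranged from 1 to 2. The OVCAR-3 DMSO count of 4 was 3 with q of at most 0.001 or equal list lengths (without SOX17). It was also 3 with a narrower promoter window (without MECOM), and ranged from 4 to 7 when 1 library was left out. The Kuramochi DMSO count of 5 was 4 with q of at most 0.001, and 3 with a narrower promoter window, without SOX17 and MECOM. Under INX-315, the Kuramochi count of 6 was 4 with equal list lengths. The OVCAR-3 count of 7 was 6, without SOX17, with equal list lengths, at least 100 bp overlap or the narrower promoter window. The 17 non-promoter regions were 2 with equal lengths, none of them gained, and 46 when only the gene's own promoters were set aside, with 7 gained in OVCAR-3 and 10 in Kuramochi. Without 1 library the gained regions ranged from 3 to 7 and from 4 to 7. At q of at most 0.001, WFDC2 could not be fitted, and SOX17 could be fitted in Kuramochi but not in OVCAR-3 or in both lines together.

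Centred heights gave 115 regions higher and 258 lower in both lines together, 40 and 161 for OVCAR-3, 1 and 36 for Kuramochi, and 641 regions lower in Kuramochi than in OVCAR-3. They turned the log2 differences of MECOM (-0.062), SOX17 (-0.41) and WT1 (-0.87) in both lines together, of SOX17 (-0.45) and WT1 (-0.97) in OVCAR-3, and of MECOM (-0.47), SOX17 (-0.33), WFDC2 (-0.61) and WT1 (-0.74) in Kuramochi. Of these turned values, only those of WT1 in both lines together and in OVCAR-3 passed. The listed fold enrichment gave 3 regions lower with INX-315 in Kuramochi, and 131 higher and 155 lower between the lines. Leaving out 1 library gave 2188 (without Kuramochi INX-315 replicate 2) to 5130 regions higher in Kuramochi and 0 to 8 lower, 0 to 1 lower in OVCAR-3, 285 to 714 higher and 135 to 410 lower between the lines, and 0 to 1 lower for line by treatment.

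The line by treatment differences, none of which passed, turned on centred heights for EMX2 (0.18), SOX17 (0.079) and WT1 (0.18), and ranged without 1 library from -0.59 to 0.43, from -0.65 to 0.29 and from -0.77 to 0.60. Same-numbered replicates did not deviate together (r = -0.049 in OVCAR-3 and 0.00513 in Kuramochi). With a replicate block, 1 region was lower in Kuramochi, 5 were lower for line by treatment, and WT1 in Kuramochi (adjusted p = 0.0213, limma) and EMX2 between the lines (adjusted p = 0.0295, limma) passed. The causes of these changes were not tested. Among single-gene values over all alternatives, 177 kept direction and side of the threshold, 22 no longer passed, 10 newly passed and 23 turned. Depth limited the lowest listed peak to 3 to 5 fragments at the genome-wide mean background, and to 8 to 9 at the local background of PAX8.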
